A study of Homo sapiens with 6 samples.

Results

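The genes described here are SREBF2, which encodes the transcription factor SREBP2, and 7 genes that SREBP2 is known to switch on, HMGCS1, IDI1, FDFT1, SQLE, LSS, DHCR7 and INSIG1. They were taken by gene symbol from the tables of read counts per gene, and all 8 were found, among 16390 genes listed. RNA was sequenced from SW780, an established human bladder cancer cell line used as a luminal type, in 3 Control libraries and 3 libraries of SW780 cells exposed to RC48 at 25 µg/ml. RC48 (disitamab vedotin) is an antibody against the surface receptor ERBB2 (HER2) to which monomethyl auristatin E, a drug that blocks microtubule assembly, is linked. The dose comes from the study's methods, which give neither how long the cells were exposed nor what the Control cells received. All libraries came from this 1 line, and nothing says that replicates were separate cultures, so the p-values measure only the spread between these samples, which may be technical.

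SREBP2 is made as a membrane protein of the endoplasmic reticulum, where it is bound to SCAP. When cholesterol in that membrane is high, SCAP is held back by the INSIG proteins, and when it is low, SCAP carries SREBP2 to the Golgi, where proteases release the part that enters the nucleus and binds sterol regulatory elements in promoters. The targets include nearly every enzyme of the route from acetyl-CoA through mevalonate and squalene to cholesterol, as well as SREBF2 and INSIG1 themselves. The comparison was RC48 against Control.

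Promoter sequence was at hand for 6 of the 8 genes (RefSeq, GRCh38.p14), but not for FDFT1 and SQLE. The stretches below lie upstream of a start site and are shown for 2 motifs. The first is 1 form of the sterol regulatory element bound by SREBP2, and only the SREBF2 stretch holds that form. The second is the motif of its partner NF-Y, which all 5 hold. Capitals mark matches to these motifs, searched on both strands in the 250 bases before each start site, the sterol regulatory element TCACNCCAC and the CCAAT box, which binds NF-Y and reads ATTGG on the other strand. In the stretches shown the matches do not overlap. HMGCS1 and IDI1 have other start sites, which are not shown, and neither are the start sites of DHCR7.
SREBF2, chr22:41832855-41833004, plus strand: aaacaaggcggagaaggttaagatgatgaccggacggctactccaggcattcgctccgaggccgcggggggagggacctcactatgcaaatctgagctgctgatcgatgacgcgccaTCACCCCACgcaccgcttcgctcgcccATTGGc
HMGCS1, chr5:43313513-43313662, minus strand: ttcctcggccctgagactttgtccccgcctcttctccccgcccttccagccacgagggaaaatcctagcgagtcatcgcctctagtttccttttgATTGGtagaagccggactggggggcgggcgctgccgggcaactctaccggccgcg
IDI1, chr10:1049220-1049369, minus strand: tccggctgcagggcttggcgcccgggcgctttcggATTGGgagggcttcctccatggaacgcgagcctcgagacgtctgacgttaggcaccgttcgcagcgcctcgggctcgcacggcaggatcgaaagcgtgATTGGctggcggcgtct
LSS, chr21:46228875-46229024, minus strand: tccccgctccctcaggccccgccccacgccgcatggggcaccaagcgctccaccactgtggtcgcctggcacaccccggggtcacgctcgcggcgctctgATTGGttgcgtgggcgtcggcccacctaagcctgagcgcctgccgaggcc
INSIG1, chr7:155297628-155297775, plus strand: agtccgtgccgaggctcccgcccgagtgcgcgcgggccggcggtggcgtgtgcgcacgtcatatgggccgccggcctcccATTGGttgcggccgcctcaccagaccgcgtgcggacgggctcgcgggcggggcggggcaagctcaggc
The element TCACNCCAC was found in SREBF2 alone of the 6 genes, as TCACCCCAC with its first base at position −133 from the start site, and it occurs in 0.883% of 35116 promoter windows of this length. The CCAAT box was found in all 6, in at least 1 window of each. It occurs in 32% of the windows, a share counted per window and not per gene. It was absent before the start sites of HMGCS1, IDI1 and DHCR7 at positions 43313181, 1056704 and 71449043. Its first base was at −106 in SREBF2, −170 in INSIG1 and −150 in LSS, at −155 and −100 in HMGCS1, and at −215 and −117 in the printed IDI1 promoter. IDI1 also had it at −132 and −129, which overlap, and at −87 from its start site at position 1048886 of chromosome 10. DHCR7 had it at −94 and −48 from its start site at position 71448393 of chromosome 11, nearer to the gene than the stretches shown. A match is a description of these letters only, and other forms of the sterol regulatory element were not searched. Of 13 further synthesis genes with promoter sequence, 0 held TCACNCCAC. In the SREBF2 window the annotation also places an exon of the antisense gene SREBF2-AS1, and strand was not stated for the counting, so reads of that gene and of SREBF2 cannot be told apart where the transcripts overlap.

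Library totals were 16453233 to 17988030 estimated counts. The defining markers of an epithelial line, EPCAM, CDH1, KRT8, KRT18 and KRT19, were high in every library. They summed to 6441 to 7360 CPM (counts scaled to library size by TMM) in Control and 6849 to 7860 CPM in RC48. That sum was made mostly of the 3 keratins. EPCAM was lower in every RC48 library without passing the test (log2 fold change −0.49, edgeR adjusted p = 0.199), and the other 4 overlapped. Summed luminal markers were 396.4 to 402.3 CPM in Control and 353.8 to 431.6 CPM in RC48, a sum made mostly of GATA3 and FOXA1. Of its 4 genes KRT20, at 1.94 to 2.03 CPM in Control, fell (log2 fold change −1.55, edgeR adjusted p = 0.0489). FOXA1 was lower in every RC48 library without passing the test (−0.44, adjusted p = 0.194). GATA3 (0.10, adjusted p = 0.668) and UPK2 (0.49, adjusted p = 0.365) had positive values, with overlapping groups. Of 5 leukocyte markers 4 were listed, with sums of 0.833 to 1.01 CPM in Control and 4.11 to 6.46 CPM in RC48, mostly ITGAM, while the defining PTPRC had 0 counts in all Control libraries and at most 0.061 CPM in RC48. Fibroblast markers (3 of 4 listed) summed to 9.50 to 10.6 CPM in Control and 12.4 to 19.3 CPM in RC48, and endothelial markers to 27.9 to 29.7 and 18.4 to 24.9 CPM. Their part in the results below was not tested. Control libraries were close to each other, with a chi-square per degree of freedom over genes of 1.47 for replicates 1 and 2 and up to 10.98 for the other pairs, where 1 is sampling noise alone. RC48 replicates stood further apart, at 124.4 for replicates 1 and 2, 57.4 for 1 and 3, and 20.7 for 2 and 3, and these libraries also differed in each gene below.

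In level per transcript length (TPM), all 8 genes were well expressed. FDFT1, squalene synthase, which joins farnesyl diphosphate molecules into the first committed sterol precursor, was the most abundant, at 1024 ± 15.6 TPM in Control (SD, n = 3), above 99.2% of the listed genes. DHCR7, which reduces 7-dehydrocholesterol in the last step to cholesterol, followed at 189.7 ± 6.02 TPM. SQLE, the epoxidase that adds oxygen to squalene and is a rate-limiting enzyme of the route, stood at 127.5 ± 10.8 TPM. LSS, which closes the epoxide to lanosterol, and IDI1, the isomerase of the 5-carbon building blocks, came next at 102.2 ± 10.6 and 101.6 ± 2.14 TPM. The lowest levels were those of INSIG1 at 73.6 ± 1.83 TPM, SREBF2 at 73.3 ± 6.96 TPM and HMGCS1, the synthase that makes HMG-CoA, at 68.6 ± 4.71 TPM, still above 84.7% of the listed genes. Ranges of neighbours in this Control order overlapped for LSS and IDI1, for INSIG1 and SREBF2, and for SREBF2 and HMGCS1, and were apart for the other neighbours.

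Under RC48 the order in TPM became FDFT1, DHCR7, LSS, SQLE, SREBF2, IDI1, INSIG1 and HMGCS1. FDFT1 stayed first at 977 ± 35.3 TPM (n = 3) and DHCR7 second at 171.4 ± 20.2 TPM. The level of SQLE was 82.3 ± 34.9 TPM, that of IDI1 74.4 ± 20.3 TPM, that of INSIG1 46.9 ± 17.7 TPM and that of HMGCS1 40.9 ± 10.5 TPM. LSS at 103.9 ± 23.7 TPM and SREBF2 at 74.5 ± 11.4 TPM had means near those of Control, with RC48 libraries both above and below the Control range. From LSS down, every pair of neighbours overlapped, so that the RC48 order below DHCR7 is not resolved. For RC48 replicate 2, TPM was derived from counts and effective gene lengths.

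**Figure D1:**
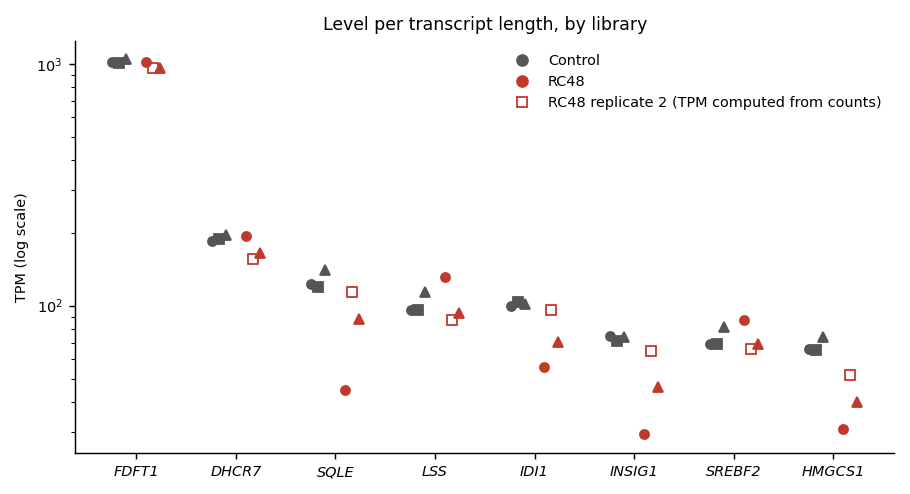
TPM on a log axis for each of the 8 genes, with 1 point per library (circle, square and triangle for replicates 1, 2 and 3, Control in grey, RC48 in red, the open square computed from counts). FDFT1 sits far above the other genes in all libraries, and the RC48 points of SQLE, IDI1, INSIG1 and HMGCS1 spread downward from the Control points, with replicate 1 lowest.

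In CPM, a set of 4 of the 8 genes was lower in every RC48 library. The RC48 libraries of the other set of 4 lay on both sides of Control. The first set held HMGCS1, IDI1, SQLE and INSIG1, and the second SREBF2, FDFT1, LSS and DHCR7. For FDFT1 and DHCR7 this depends on the scaling. In TPM their highest RC48 libraries (1018 and 194.15 TPM) did not exceed the Control maximum (1041 and 196.19 TPM). None of the 8 passed edgeR's quasi-likelihood test at an adjusted p under 0.05, in which 2.21% of 13055 genes (288, of them 258 higher and 30 lower) were called in either direction. With limma on log2(TPM + 1), as with log2(TPM + 0.1), 0 of the 8 were called, and with DESeq2 1 was, HMGCS1, where 1.33% of genes were called lower. At an unadjusted p under 0.05 in edgeR the 4 genes of the first set were lower, against 7.21% of all genes. In bulk RNA, fewer cells with a transcript and less of it per cell cannot be told apart. The exact permutation test on 1 gene (two-sided) cannot go below 0.1 with 3 libraries a group, and no overlap between the groups fixes it at that value, so it adds nothing to the split.

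HMGCS1 (NCBI gene 3157) catalyses the step just before the rate-limiting reductase of the pathway. It had 195.0, 192.0 and 198.7 CPM in Control replicates 1, 2 and 3 and 98.8, 141.9 and 119.4 CPM in RC48 replicates 1, 2 and 3. The groups were apart, with the highest RC48 library well below the lowest Control library. Means were 195.3 ± 3.36 and 120.0 ± 21.6 CPM (SD, n = 3), for a log2 fold change of −0.70 (SE 0.15, 95% interval −1.05 to −0.36). Its edgeR adjusted p was 0.0647, the nearest to the threshold among the 8 genes, and 0.0021 in DESeq2.

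IDI1 (NCBI gene 3422) sits after the mevalonate steps and turns isopentenyl diphosphate into dimethylallyl diphosphate. Control replicates had 156.1, 163.0 and 146.5 CPM and RC48 replicates 97.3, 141.4 and 114.9 CPM. RC48 replicate 2 came within a few CPM of the lowest Control library, and no library crossed over. The log2 fold change was −0.40 (SE 0.15, 95% interval −0.76 to −0.038), with an edgeR adjusted p of 0.237.

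SQLE (NCBI gene 6713) had the largest coefficient of variation of the 8 genes under RC48, at 35.7%. Its values were 191.2, 186.7 and 198.7 CPM in Control and 77.1, 165.6 and 140.2 CPM in RC48. Replicate 1 was far below the other 2 RC48 libraries, which were themselves below every Control library. Over the groups the log2 fold change was −0.59 (SE 0.25, 95% interval −1.18 to −0.0038), with an edgeR adjusted p of 0.258.

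INSIG1 (NCBI gene 3638), the protein that retains SCAP and SREBP2 in the endoplasmic reticulum and a target of the factor it restrains, had 116.0, 110.9 and 104.5 CPM in Control. In RC48 it had 50.5, 93.6 and 73.5 CPM, in the same order of libraries as HMGCS1, IDI1 and SQLE, with replicate 1 lowest and replicate 2 nearest to Control. Its log2 fold change was −0.61 (SE 0.21, 95% interval −1.10 to −0.11), with an edgeR adjusted p of 0.209.

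SREBF2 (NCBI gene 6721), the factor itself, had 201.1, 200.4 and 215.2 CPM in Control and 274.2, 178.8 and 205.2 CPM in RC48. Here replicate 1 was the highest of the 6 libraries and replicate 2 the lowest, the reverse of the first set. The log2 fold change of 0.094 (SE 0.17, 95% interval −0.29 to 0.48) had an edgeR adjusted p of 0.719. These counts measure the mRNA and not the cleaved, active protein.

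LSS (NCBI gene 4047) followed SREBF2 closely, with 204.4, 209.1 and 218.3 CPM in Control and 318.1, 175.7 and 205.7 CPM in RC48. DHCR7 (NCBI gene 1717) had 254.4, 260.7 and 247.1 CPM in Control and 296.7, 200.8 and 232.7 CPM in RC48. FDFT1 (NCBI gene 2222) had 1032, 1027 and 962.7 CPM in Control and 1160, 910.1 and 997.4 CPM in RC48. In all 3 genes RC48 replicate 1 lay above every Control library in CPM and replicate 2 below every Control library. In TPM, RC48 replicate 1 of DHCR7 and FDFT1 lay within the Control range. Their log2 fold changes were 0.15 (SE 0.21, 95% interval −0.35 to 0.64) for LSS, −0.062 (SE 0.16, −0.42 to 0.30) for DHCR7 and 0.022 (SE 0.13, −0.27 to 0.31) for FDFT1. The edgeR adjusted p-values were 0.658, 0.802 and 0.916. Intervals of this width do not show that the 3 mRNAs stayed the same.

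**Figure D2:**
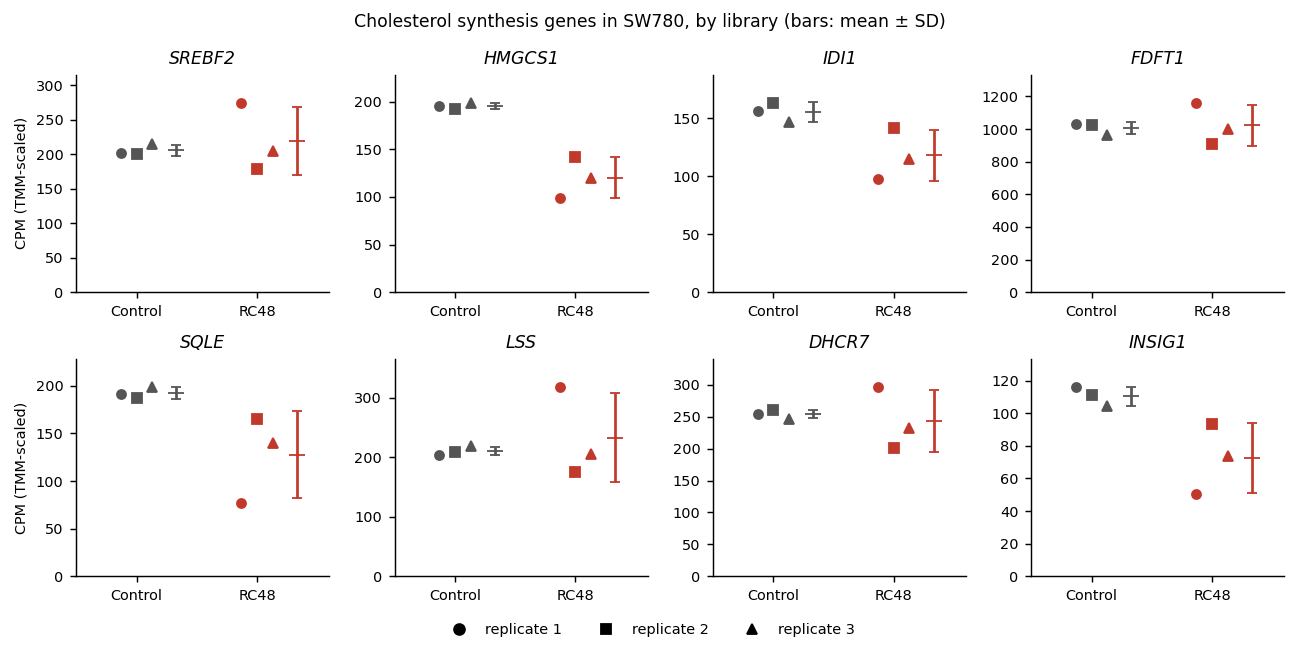
TMM-scaled CPM of each gene in each library (grey, Control; red, RC48; marker shape, replicate), with the mean ± SD of each group beside the points. In HMGCS1, IDI1, SQLE and INSIG1 the 3 RC48 points lie below the Control points, and in SREBF2, LSS, DHCR7 and FDFT1 replicate 1 lies above Control and replicate 2 below.

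Counted over the whole group in CPM, 4 of the 8 genes had every RC48 library below every Control library. In 0 every RC48 library was above, and 4 overlapped. Over all tested genes the shares were 14.1% below and 17.4% above. The median log2 fold change of the 8 was −0.23, beside 0.016 over all tested genes. By library, all 8 genes were under the Control minimum in RC48 replicate 2 (29.1% of all tested genes were). In replicate 3 it was 5 of the 8 (38.4% of all genes), and in replicate 1 it was 4 (43.6% of all genes, a share near that of the 8), with the other 4 above the Control maximum. The coefficient of variation was 1.72% to 5.33% between Control libraries and 12.4% to 35.7% between RC48 libraries.

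The sets were formed from these same 6 libraries, so correlations between their genes restate the split and are given as a description only. Pearson's r of log2 CPM over the 6 libraries was 0.91 to 0.98 between HMGCS1, IDI1, SQLE and INSIG1, and 0.86 to 0.99 between SREBF2, LSS, DHCR7 and FDFT1, highest for SREBF2 with LSS. Across the sets it was −0.82 to −0.16. The 6 points share libraries, treatment group and base composition.

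The sets also differed in base composition. GC content of the transcripts was 40.8% in SQLE, 41.8% in HMGCS1, 42.5% in IDI1 and 46.4% in INSIG1, against 48.8% in FDFT1, 57.1% in SREBF2, 57.6% in DHCR7 and 58.3% in LSS. The median of all tested genes was 49.9%. Over all tested genes the log2 ratio of an RC48 library to Control rose with GC content in replicate 1 (Spearman's rho across genes 0.74) and replicate 3 (0.57), and was flat in replicate 2 (−0.012). Genes are not independent, so no p is given for these. At the GC content of SQLE the trend alone was −0.74 in replicate 1, where SQLE had a log2 ratio of −1.32, and at that of LSS it was 0.57, where LSS had 0.60. In replicate 2, where the trend was between −0.016 and 0.015 at all 8 genes, every gene had a negative ratio, from −0.46 for HMGCS1 to −0.13 for IDI1. SREBF2 had −0.20, LSS −0.26, DHCR7 −0.34 and FDFT1 −0.15 in that library.

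**Figure D3:**
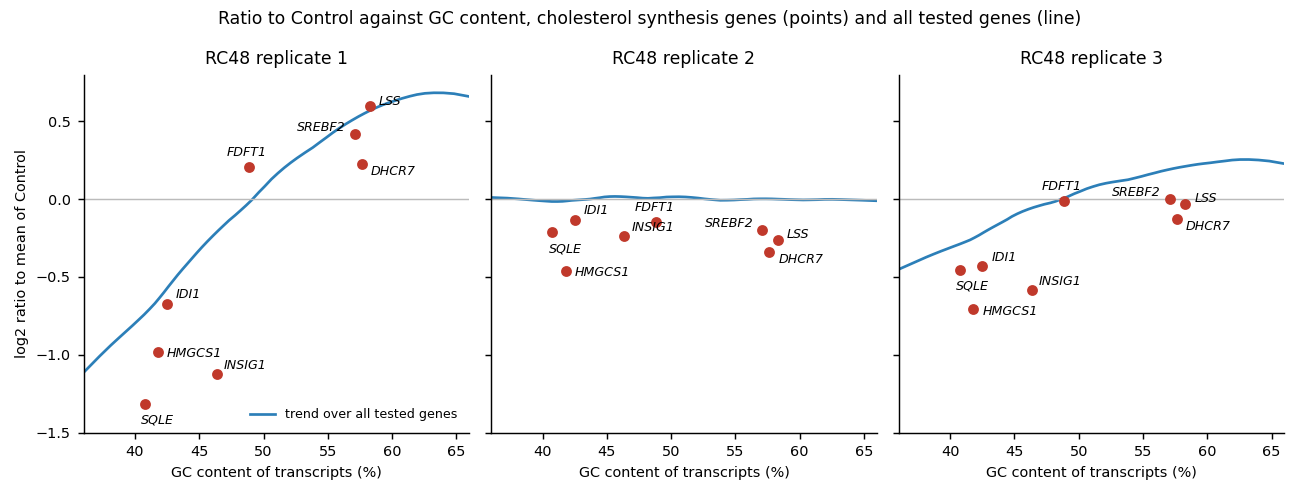
Log2 ratio to the Control mean in each RC48 library (vertical axis) against the GC content of the transcripts in percent, with the 8 genes as points and the loess trend of all tested genes as a line. The line climbs in replicates 1 and 3 and is flat in replicate 2, where all 8 points lie below 0.

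With each library's GC trend removed as an offset in edgeR, 7 of the 8 genes had a negative log2 fold change and 2 fell, HMGCS1 and DHCR7, where 2.47% of genes were called lower. Over all genes this fit called 898 (576 higher and 322 lower), beside 258 higher and 30 lower without it. HMGCS1 fell by 0.41 on the log2 scale (SE 0.074, edgeR adjusted p = 0.0160), with corrected ratios of −0.34, −0.45 and −0.46 in RC48 replicates 1, 2 and 3. DHCR7 fell by 0.33 (SE 0.070, 95% interval −0.49 to −0.17, edgeR adjusted p = 0.0311), and its corrected ratios were nearly equal, at −0.32, −0.34 and −0.33. Neither was called when the replicate number was added to this fit.

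INSIG1 had a corrected log2 fold change of −0.54 (SE 0.15, edgeR adjusted p = 0.0776) and kept the most of its uncorrected value among the genes of the first set, with ratios of −0.91, −0.25 and −0.53. For SQLE the corrected value was −0.30 (SE 0.11, adjusted p = 0.152), and for IDI1 it was −0.15 (SE 0.084, adjusted p = 0.303). SREBF2 moved from a positive to a negative value, −0.17 (SE 0.080, adjusted p = 0.239), as did LSS, −0.15 (SE 0.10, adjusted p = 0.364). FDFT1 remained at 0.027 (SE 0.11, adjusted p = 0.893). The median of the 8 genes was −0.23 after correction, as before it, beside −0.0059 over all genes.

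RC48 replicate 1 stood furthest from the other libraries. Without it, 1 of the 8 genes was called, HMGCS1, with a log2 fold change of −0.59 (edgeR adjusted p = 0.0042), where 2.21% of genes were called lower. All 8 then had negative values, which were −0.41 for INSIG1, −0.34 for SQLE, −0.28 for IDI1, −0.24 for DHCR7, −0.15 for LSS, −0.11 for SREBF2 and −0.085 for FDFT1. Without RC48 replicate 2, the library with a flat GC trend, the 4 genes of the first set were called lower, but so were 14.1% of all genes. SREBF2 was then at 0.22 and LSS at 0.31, and neither was called.

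Of 14 further enzymes and helpers of the route, all tested, 0 were called in edgeR (2.21% of all genes were). In edgeR 3 were at an unadjusted p under 0.05, all lower (7.21% of all genes were), and 8 had a negative log2 fold change. Every RC48 library was below every Control library in 5 of them (14.1% of all genes) and above in 0 (17.4% of all genes). Their median was −0.11. MSMO1, which removes the C4 methyl groups of the sterol, had −0.75 (SE 0.34, adjusted p = 0.269), with 174.8, 173.0 and 151.1 CPM in Control and 50.1, 147.6 and 99.5 CPM in RC48. CYP51A1, the lanosterol demethylase, had −0.65 (SE 0.21, adjusted p = 0.184), with 355.8, 347.1 and 322.4 CPM in Control and 151.1, 280.5 and 219.7 CPM in RC48. Both repeated the order of libraries seen in SQLE. RC48 replicate 2 had 11 of the 14 genes below the Control minimum (29.1% of all genes), and replicates 1 and 3 had 7 each (43.6% and 38.4% of all genes).

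With the GC trend removed, 12 of the 14 had a negative value (median −0.17) and 2 fell, where 2.47% of genes were called lower; neither was called when the replicate number was added to this fit. They were ACAT2, the thiolase that starts the route (−0.44, adjusted p = 0.0159) and MVK, mevalonate kinase (−0.34, adjusted p = 0.0338). ACAT2 was lower in every RC48 library, with 263.2, 276.8 and 256.7 CPM in Control and 201.3, 193.5 and 213.0 CPM in RC48. MVK was not, with 75.0, 78.0 and 72.3 CPM in Control and 89.0, 58.8 and 73.1 CPM in RC48.

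**Figure D4:**
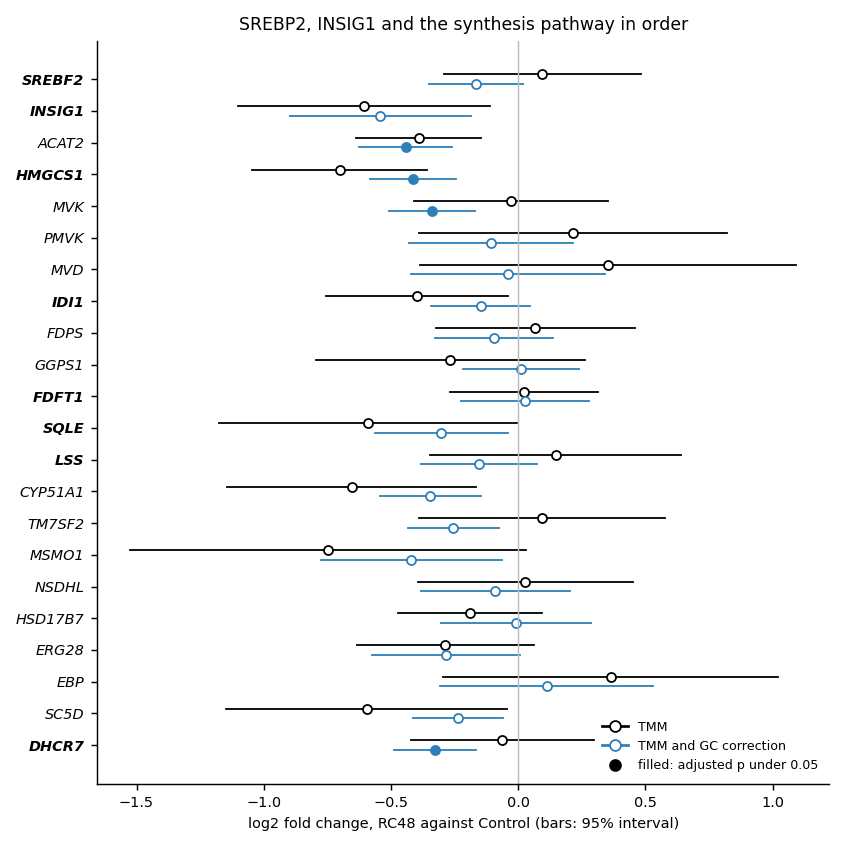
Log2 fold change of RC48 against Control with its 95% interval for SREBF2, INSIG1 and 20 synthesis genes in pathway order (the 8 genes of the group in bold), from edgeR with TMM (black) and with the GC correction added (blue). Filled points mark an adjusted p under 0.05, which 0 genes reached without the correction and 4 with it, all of them to the left of 0.

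Among 11 genes that regulate SREBP processing or sterol sensing (SREBF1, SCAP, INSIG2 and others), 1 fell and 0 rose. Over all 13055 tested genes, 30 fell and 258 rose. The gene of the 11 that fell was TMEM97, the sigma-2 receptor, a sterol-responsive protein that binds the lysosomal cholesterol transporter NPC1. It had 95.8, 94.3 and 97.3 CPM in Control and 57.5, 66.6 and 62.5 CPM in RC48, a log2 fold change of −0.62 (SE 0.12, edgeR adjusted p = 0.0393), and −0.60 (adjusted p = 0.0027) with the GC trend removed. With the trend removed, 2.47% of all genes were called lower. The median of the 11 was −0.20, and 0.071 with the trend removed.

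Of 15 genes of sterol uptake, transport, storage and export, 14 were listed and 12 tested, with 1 higher and 0 lower. Over all genes, 258 of 13055 were called higher and 30 lower. ABCG1, the exporter that loads cholesterol onto HDL and a target of the sterol-sensing receptors LXR, rose from 8.21, 9.73 and 9.48 CPM in Control to 24.8, 19.0 and 16.8 CPM in RC48. Its log2 fold change was 1.14 (SE 0.18, edgeR adjusted p = 0.0230), and 0.96 (adjusted p = 0.0043) with the GC trend removed. With the trend removed, 576 of 13055 genes were called higher. The list's median was 0.094.

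Of 9 fatty acid synthesis genes, which are chiefly targets of the related factor SREBP1, 0 were called and 8 had a negative value (median −0.072). Of all 13055 tested genes, 2.21% were called and 6345 had a negative value. ELOVL6, an elongase, had −0.73 (SE 0.16, adjusted p = 0.0675), with 46.7, 44.1 and 48.1 CPM in Control and 22.6, 32.0 and 28.9 CPM in RC48. With the GC trend removed it fell by 0.65 on the log2 scale (adjusted p = 0.0057). It was the one call of the list in that fit, where 2.47% of all genes were called lower. FADS2, a desaturase, had 0.41 (SE 0.19, adjusted p = 0.276).

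The genes whose pattern over the 6 libraries was most like the mean of the 8, among 9988 genes with a mean of at least 10 CPM, were CLCA2, SLC20A1, CEACAM6, ODC1 and TMEM97, with Pearson's r of 0.997 to 0.998. The centred mean of the 8 was 0.15, 0.15 and 0.14 in Control and −0.19, −0.10 and −0.15 in RC48 on the log2 scale. This mean averages sets whose genes correlated at −0.82 to −0.16 across the sets, so their opposite movements partly cancel in it. A high r with it reflects an even drop under RC48 and need not hold for each of the 8 genes. CLCA2 (log2 fold change −1.37, adjusted p = 0.0049) and SLC20A1, a phosphate transporter (−0.70, adjusted p = 0.0157), fell, and CEACAM6 (−0.48, adjusted p = 0.0706) and ODC1, ornithine decarboxylase (−0.55, adjusted p = 0.0688), did not pass the test.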

How the data were processed

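RNA of SW780 cells was sequenced in 3 Control and 3 RC48 libraries. Reads were filtered with SOAPnuke and mapped with Bowtie2 by the authors, who deposited estimated counts per gene from RSEM, without normalization, and TPM values, which are scaled for gene length and library size. The submitters' processing notes name hg38, and the annotation and tool versions are not given in the sources used here. TPM of RC48 replicate 2 was computed from its counts, a procedure that missed the deposited TPM of RC48 replicate 3 by a median of 0.0157 (absolute log2 difference).

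Estimated counts, not whole for 11.7% to 15.0% of the genes of a library (2 of the 8 genes described), were rounded, filtered with filterByExpr, scaled by TMM and compared by the quasi-likelihood test of edgeR 4.0.16 in R 4.3.3, with Benjamini-Hochberg adjustment over 13055 genes and a threshold of 0.05. Totals of 16453233 to 17988030 counts put 3790 to 52949 counts behind each of the 8 genes in each group. GC content came from GENCODE release 29 transcripts (99.4% of genes, matched by NCBI gene number), and its trend was a loess fit (span 0.3). Permutation tests were exact and two-sided. Alternatives were DESeq2 1.42.0, limma 3.58.1 on log2(TPM + 1) and log2(TPM + 0.1), RLE scaling, no filter, the GC correction, a replicate block with and without it, and each library left out. Analyses also used Python 3.11.15 with pandas 2.3.3, numpy 2.4.6 and scipy 1.17.1, with figures from matplotlib 3.10.9. The test was also run on simulated data, which had less spread between replicates than these libraries and no GC trend. That run does not show how the test performs on these libraries.

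The 8 genes and all lists were chosen with earlier results of these data known. Named are the 8 genes, every called gene of a list or else its 2 largest changes among genes whose higher group reached 10 CPM, genes called only with the GC correction (chosen after their values were seen), and the 5 genes most correlated with the mean of the 8. Some genes of the pathway are not reported here.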

Additional observations from a re-analysis of the deposited data

How the results depend on the processing

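The number of the 8 genes called was 0 in edgeR, with RLE factors, without the filter, in both limma fits and with a replicate block alone or with the GC correction, 1 with DESeq2, 2 with the GC correction, and 0 to 4 as each library was left out (4 without RC48 replicate 2, 1 without RC48 replicate 1). Of the 14 further synthesis genes 0 were called in edgeR, 1 (ACAT2) with DESeq2, 2 with the GC correction, and 0 to 3 as each library was left out. Over all genes 288 were called, 676 with DESeq2 (488 higher), 898 with the GC correction, 547 with the replicate block and the GC correction, and 68 to 3726 as each library was left out, 3726 without RC48 replicate 2, 897 without RC48 replicate 1, 93 without RC48 replicate 3 and 68 to 78 without a Control library. Same-numbered libraries did not deviate together (r = 0.0020, -0.13 and 0.0048 for replicates 1, 2 and 3). With 3 libraries a group, these values cannot settle whether the numbers pair the samples. The replicate block called 331 genes (277 higher) and 0 of the 8.

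HMGCS1, IDI1, SQLE and INSIG1 kept a negative log2 fold change in all 14 alternatives, from -0.84 to -0.41, -0.55 to -0.15, -0.82 to -0.30 and -0.84 to -0.41, with adjusted p from 0.0021 to 0.288, 0.0284 to 0.518, 0.0360 to 0.527 and 0.0219 to 0.518. These genes were grouped because every RC48 library lay below every Control library, so leaving a library out could not test their sign. The remaining alternatives used the same libraries again. Their constant sign therefore restates how the set was formed and is not separate evidence for it. The other genes, whose groups overlapped, changed sign. FDFT1 was at -0.0025 with DESeq2, -0.068 in both limma fits, -0.012 without Control replicate 3 and -0.085 without RC48 replicate 1. SREBF2 was at -0.17 with the GC correction, alone or with the block (-0.166 and -0.165), and -0.11 without RC48 replicate 1, and LSS at -0.15, -0.16 and -0.15. DHCR7 was at 0.057 without RC48 replicate 2. As each library was left out, SREBF2 ranged from -0.11 to 0.22, FDFT1 from -0.085 to 0.097, LSS from -0.15 to 0.31 and DHCR7 from -0.24 to 0.057. Adjusted p ranged from 0.555 to 0.993 for FDFT1, 0.239 to 0.946 for SREBF2, 0.199 to 0.986 for LSS and 0.0311 to 0.906 for DHCR7. The cause of these changes was not tested. The part of depth in the width of the intervals was not tested.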
